A study of Mus musculus with 8 samples.

Results

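The genes examined here encode the mitochondrial ribosomal proteins, the proteins of the ribosome inside mitochondria. They were taken by symbol: every protein-coding gene in the deposited count table whose symbol starts with Mrpl (large subunit) or Mrps (small subunit) followed by a number. This rule gave 78 of the 31053 genes in the table, 49 for the large and 29 for the small subunit. Another 5 annotated processed pseudogenes carry such a symbol and were left out.

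Bulk RNA-seq was performed on brown adipose tissue (BAT) of 4 WT and 4 Ucp1Δ/Δ mice (ATGLKO in the sample labels), to compare BAT with and without the lipase ATGL, which releases fatty acids from stored triglyceride. Ucp1Δ/Δ mice were made by crossing Pnpla2 fl/fl mice, Pnpla2 being the gene that encodes ATGL, with mice that carry a Cre recombinase under Ucp1. Deletion is therefore limited to UCP1+ adipocytes, and the other cells of the tissue keep the gene. Both groups were on the C57BL6/J strain. The labels give an age of 10 weeks for both groups, whereas the study's own description gives a younger age. Next to brown adipose tissue, the cell type field of the labels names the stromal vascular fraction, which holds the cells other than adipocytes. All 14 brown adipocyte markers examined, Ucp1 among them, were above 0 in every library. In bulk tissue, fewer cells of a type and less RNA per cell cannot be told apart.

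The mitochondrial ribosome (mitoribosome) is built from ribosomal RNAs encoded in mitochondrial DNA and from proteins that are encoded in the nucleus and imported. Its small subunit reads the mRNA and its large subunit forms the peptide bond. It translates only the membrane proteins encoded in mitochondrial DNA, which are core subunits of the respiratory chain and of ATP synthase. Brown adipocytes are rich in mitochondria, whose respiratory chain drives heat production through UCP1.

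Promoter sequences are shown for the members whose counts fell in Ucp1Δ/Δ BAT, because promoters of mitochondrial protein genes are known for motifs of the ETS family (GABPA), NRF1 and YY1. They come from RefSeq on the build GRCm38.p6 and cover 250 bases before to 50 bases after the annotated start, and 69 of the 78 members had one. The stretches below are limited to bases outside annotated exons. Capitals mark the ETS motif CCGGAAG or its reverse complement CTTCCGG, and a promoter stretch without capitals holds none of the motifs searched.
Mrpl34, chr8:71464826-71464925, plus strand: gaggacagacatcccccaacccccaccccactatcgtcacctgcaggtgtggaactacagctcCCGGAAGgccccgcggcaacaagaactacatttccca
Mrpl30, chr1:37890412-37890476, plus strand: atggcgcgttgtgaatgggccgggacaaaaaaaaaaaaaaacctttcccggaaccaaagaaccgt
Mrpl35, chr6:71823811-71823910, minus strand: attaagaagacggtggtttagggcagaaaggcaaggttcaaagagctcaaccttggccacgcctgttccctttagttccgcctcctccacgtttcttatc
Mrps18c, chr5:100798599-100798626, plus strand: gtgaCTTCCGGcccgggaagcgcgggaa
The ETS motif of Mrpl34 starts 37 bases before the RefSeq start, and that of Mrps18c 156 bases before it.

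Mrpl21, Mrpl35 and the Mrps18c paralog Mrps18a have motifs close to the start, shown with 8 bases on each side and with the motif in capitals. The ETS motif of Mrpl21 starts 8 bases after the RefSeq start and that of Mrps18a 26 bases before it. The YY1 motif AAGATGGC starts 24 bases after the start of Mrpl35 and 12 bases after that of Mrps18a.
Mrpl21, ETS, chr19:3283041-3283063, plus strand: tgcttccgCTTCCGGttgggact
Mrps18a, ETS, chr17:46110970-46110992, plus strand: cccctgctCCGGAAGcggaagtg
Mrps18a, YY1, chr17:46111007-46111030, plus strand: tgcgttccAAGATGGCggccctca
Mrpl35, YY1, chr6:71823746-71823769, minus strand: caggctgcAAGATGGCggcttcca
Mrpl30 and Mrpl47 had no match to any of the 6 motifs searched in the window of 300 bases. Of the 6 members that fell, 3 held the ETS motif. It also lay close to the start of Mrpl3, Mrps12, Mrps23 and Mrps27, whose log2FC was above 0 (positions -19, 2, 16 and -48). The YY1 motif was in Mrps12 and Mrps27 too, so the motifs shown were not particular to members that fell.

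Over the 69 member promoters, 26 (37.7%) held the ETS motif CCGGAAG, against 22.3% of the promoters of all genes tested and 9.93% of all 27025 RefSeq promoters. The YY1 motif AAGATGGC was in 12 (17.4%), against 5.91% of the promoters of genes tested and 3.19% of all promoters. The NRF1 motif GCATGCGC was in 8 (11.6%), against 6.48% and 3.05%, and 7 of these 8 were large-subunit genes. The estrogen-related receptor motif AAGGTCA was in 4 (5.80%), against 3.87% and 5.38%. The SP1 motif GGGCGG was in 34 (49.3%), against 71.9% of genes tested and 38.2% of all promoters. The CCAAT box was in 27 (39.1%), against 42.2% and 41.1%. Both strands were searched, each motif was counted separately whether or not it overlapped another, and a match of letters does not show that a factor binds. By subunit, the ETS motif was in 15 of 43 large-subunit promoters (34.9%) and 11 of 26 small-subunit promoters (42.3%).

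Total counts were between 2017697 and 3115956 per mouse, 38.4% to 45.6% of them from mitochondrially encoded genes, with the highest share in WT replicate 4. Levels are in CPM, counts scaled to the library total after TMM scaling (a correction for differences in composition between libraries), and 3 counts stand for 0.933 to 1.53 CPM, a floor that covers counting error only. Reads came from a digital mRNA-seq kit and the values are not scaled by length, so levels are compared between mice and not between genes. The 2 genotypes were tested in edgeR (quasi-likelihood), with p-values adjusted by Benjamini-Hochberg over all 8930 genes that passed the filter on low counts. The targeted gene Pnpla2 had 2913 ± 191 CPM in WT mice (SD, n = 4) and 474 ± 59.2 CPM in Ucp1Δ/Δ mice (SD, n = 4), a log2FC of -2.62 (SE 0.17, edgeR adjusted p = 1.97e-07). The labels do not say how animals were housed or paired, so p-values measure the spread between these mice.

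Of the 78 members, 74 passed the filter, 47 of the large and 27 of the small subunit. Mrpl23, Mrpl53, Mrps18b and Mrps36 did not pass. Mrpl53 had 0 counts in every mouse, Mrpl23 between 1 and 12, Mrps18b between 0 and 5, and Mrps36, whose protein is now assigned to the 2-oxoglutarate dehydrogenase complex, between 6 and 20. Among the tested members, mean levels in WT mice were between 5.44 CPM (Mrps28) and 568 CPM (Mrpl34).

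In Ucp1Δ/Δ BAT, 6 of the 74 tested members fell and none rose (edgeR, adjusted p under 0.05). That is 8.11% of the members, near the 7.63% of all tested genes that fell, so the share called does not set the members apart. At an unadjusted p under 0.05, 21 members were lower (28.4%, against 14.3% of all tested genes) and 0 were higher (against 18.3%). DESeq2's Wald test called 8 members lower, limma voom 9 and limma trend on the deposited log2 values 6, and each called 0 higher. Over all tested genes 681 fell and 1191 (13.3%) rose, and with libraries scaled by total counts only 404 fell and 1478 rose.

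What most members shared was a small difference in one direction. The log2FC was below 0 in 66 of 74 members (89.2%), against 50.7% of all tested genes. With libraries scaled by total counts only, which moved the median of all tested genes to 0.13, it was below 0 in 58 members. The median log2FC was -0.31, a level of 80.6% of WT, with quartiles of -0.49 and -0.17, whereas the median of all tested genes was -0.01. The standard error of a single member's log2FC was 0.21 in the median, so a difference of the size of the members' median did not pass the test for most single genes. No member both fell and had a log2FC below -1, as 2.54% of all tested genes did, and the 95% interval of 61 members (82.4%) lay wholly above -1, against 83.2% of all tested genes.

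**Figure D1:**
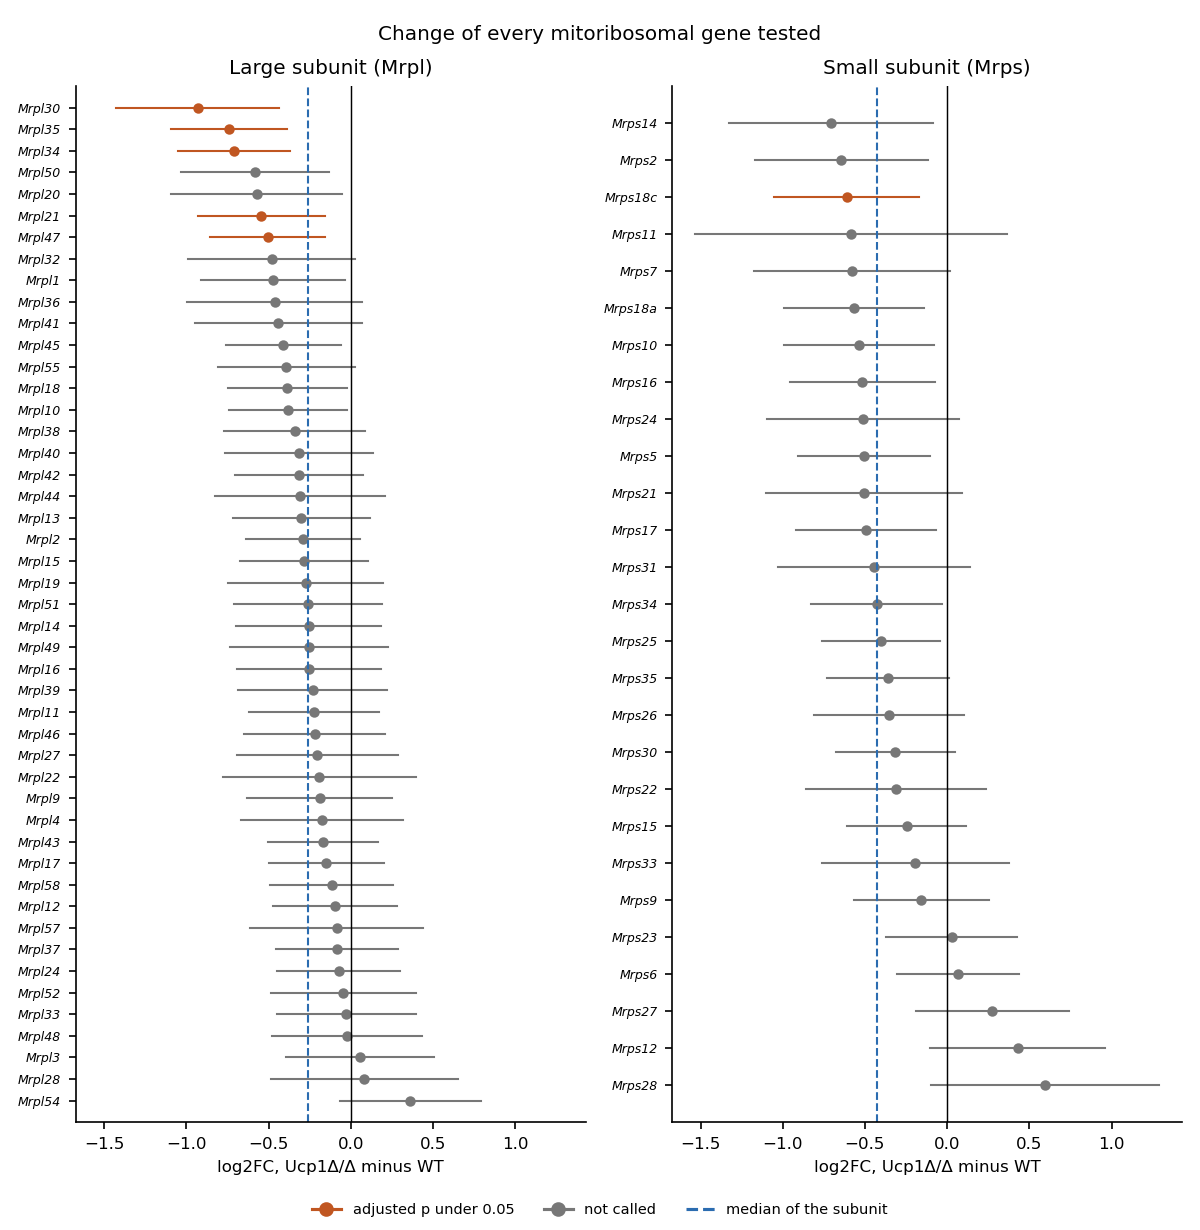
Log2FC (Ucp1Δ/Δ minus WT, x axis) of every tested large-subunit (left, 47 genes) and small-subunit gene (right, 27 genes), with bars for the 95% interval from edgeR. Orange marks the 6 members with an adjusted p under 0.05, and the dashed lines mark the subunit medians of -0.26 and -0.43. Most points lie left of 0, most bars cross 0, and 3 large-subunit and 5 small-subunit genes lie right of 0.

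The large subunit held 5 of the 6 members that fell. Mrpl34, a protein with a bacterial counterpart in the large subunit (ENSMUSG00000034880, chr8:71464959-71465747, plus strand, mm10), had 551, 649.6, 580.4 and 491 CPM in the WT mice, given here and below in the order of their replicate numbers. The Ucp1Δ/Δ mice, in the same order, had 342, 299, 372 and 375 CPM. The lowest WT mouse was above the highest Ucp1Δ/Δ mouse, and the log2FC was -0.71 (SE 0.16, edgeR adjusted p = 0.00469).

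Mrpl35, listed here with the central protuberance, the crown of the large subunit that faces the small one (ENSMUSG00000052962, chr6:71812997-71826969, minus strand), had 109.6, 111, 105 and 87.1 CPM in the WT mice. In the Ucp1Δ/Δ mice it had 57.0, 55.1, 74.0 and 61.4 CPM. The genotypes did not overlap here either, and the mean in Ucp1Δ/Δ mice was 59.9% of that in WT mice (log2FC -0.74, SE 0.17, edgeR adjusted p = 0.00476).

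Mrpl30, another protein with a bacterial counterpart (ENSMUSG00000026087, chr1:37890477-37898535, plus strand), had the largest fall of all tested members. Its levels were 253, 411, 283 and 189 CPM in WT mice and 188, 115, 169 and 124 CPM in Ucp1Δ/Δ mice. WT replicate 4 and Ucp1Δ/Δ replicate 1 differed by less than 1 CPM, so the genotypes only just did not overlap. The log2FC was -0.93 (SE 0.23, edgeR adjusted p = 0.00971).

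Mrpl34, Mrpl35 and Mrpl30 passed the threshold in every alternative tried, also with each mouse left out, with log2FCs between -1.09 and -0.57. The other 3 members that fell lost the call in 9 or 10 of 17 alternatives, with the direction kept.

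Mrpl47 (ENSMUSG00000037531, chr3:32725397-32737605, minus strand) encodes a protein at the exit of the tunnel through which the new peptide leaves. It had 45.4, 58.2, 51.1 and 46.1 CPM in WT mice and 36.8, 32.4, 34.3 and 38.2 CPM in Ucp1Δ/Δ mice, with no overlap (log2FC -0.51, SE 0.17, edgeR adjusted p = 0.0404). Its exons overlap those of Ndufb5 by 616 bases and those of Actl6a by 452 bases on the opposite strand, and the strand setting of the counting is not given in the sources used here. Ndufb5, a complex I subunit, also fell (log2FC -0.73, SE 0.19, edgeR adjusted p = 0.0128), and reads of these genes cannot be told apart in the overlap if strand was not used.

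Mrpl21 (ENSMUSG00000024829, chr19:3282901-3292837, plus strand), a large-subunit protein with a bacterial counterpart, had 57.1, 67.6, 61.4 and 57.8 CPM in WT mice and 53.4, 38.0, 43.5 and 32.2 CPM in Ucp1Δ/Δ mice. The genotypes did not overlap, with Ucp1Δ/Δ replicate 1 close to the WT mice (log2FC -0.55, SE 0.18, edgeR adjusted p = 0.0434). Its exons share 117 bases with Ighmbp2 on the opposite strand.

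Mrps18c, the only small-subunit gene that fell (ENSMUSG00000016833, chr5:100798627-100804471, plus strand), encodes one of a family of paralogs that share a bacterial counterpart. It had 44.9, 57.3, 38.4 and 35.0 CPM in WT mice and 31.5, 33.0, 28.8 and 21.0 CPM in Ucp1Δ/Δ mice, again with no overlap. The log2FC was -0.61 (SE 0.21, edgeR adjusted p = 0.0463). An unclassified transcript on the same strand, Gm43511, shares 250 exon bases with it.

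**Figure D2:**
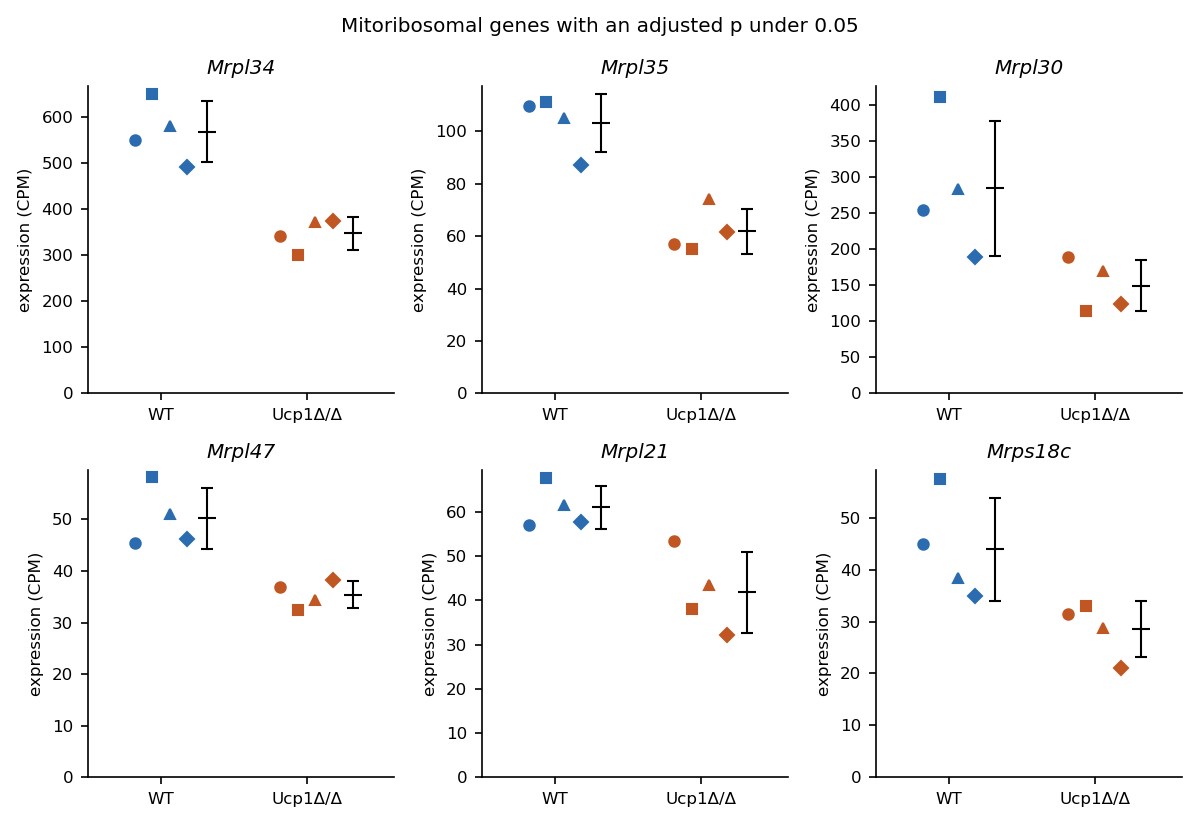
Level in CPM (y axis, from 0) of the 6 mitoribosomal genes with an adjusted p under 0.05, in WT (blue) and Ucp1Δ/Δ mice (orange). Each point is 1 mouse (circle, square, triangle and diamond for replicates 1 to 4), and the bars give the mean and SD (n = 4). In all 6 genes the lowest WT mouse lies above the highest Ucp1Δ/Δ mouse, by less than 1 CPM for Mrpl30.

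The paralogs of Mrps18c did not pass the test. Mrps18a, which takes its place in the large subunit of the mammalian mitoribosome despite its symbol, had 51.0, 50.6, 66.5 and 41.0 CPM in WT mice and 37.1, 28.9, 45.5 and 30.5 CPM in Ucp1Δ/Δ mice. The groups overlapped, with WT replicate 4 below Ucp1Δ/Δ replicate 3, and the log2FC was -0.57 (SE 0.20, edgeR adjusted p = 0.0579). Among the members that did not pass, Mrps18a had the smallest adjusted p, and 7 of 17 alternatives put it past the threshold. Mrps18b was too low to test.

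Mrpl50, a protein of the mitochondrial large subunit without a bacterial counterpart, came next. It had 31.1, 29.1, 34.7 and 21.3 CPM in WT mice and 19.5, 23.3, 14.6 and 20.2 CPM in Ucp1Δ/Δ mice (log2FC -0.58, SE 0.21, edgeR adjusted p = 0.0651). Only WT replicate 4 lay within the range of the Ucp1Δ/Δ mice.

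The most negative small-subunit log2FC belonged to Mrps14, whose protein sits in the head of the small subunit. Its levels were 24.5, 72.1, 29.1 and 30.4 CPM in WT mice and 21.9, 27.7, 22.6 and 23.2 CPM in Ucp1Δ/Δ mice. WT replicate 2 stood far above the other WT mice, and the log2FC was -0.71 (SE 0.29, edgeR adjusted p = 0.103). Leaving out single mice moved it between -0.88 and -0.24.

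At the other end, the most positive members had wide intervals. Mrps28, a small-subunit protein, had the lowest counts of all tested members. It had 5.61, 8.06, 3.01 and 5.07 CPM in WT mice and 8.14, 9.96, 7.52 and 6.44 CPM in Ucp1Δ/Δ mice (log2FC 0.59, SE 0.33, 95% interval -0.10 to 1.29, edgeR adjusted p = 0.224). The groups overlapped through WT replicate 2.

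Mrpl54, placed here with the stalk that recruits translation factors, had 58.1, 78.0, 70.5 and 52.2 CPM in WT mice. In Ucp1Δ/Δ mice it had 111, 84.6, 74.8 and 62.2 CPM (log2FC 0.36, SE 0.20, 95% interval -0.07 to 0.79, edgeR adjusted p = 0.232). Mrpl12, the stalk protein that is also known to bind the mitochondrial RNA polymerase, was between 156 and 219.5 CPM in WT mice and between 152 and 218 CPM in Ucp1Δ/Δ mice. Its log2FC was -0.10 (SE 0.18, 95% interval -0.47 to 0.28, edgeR adjusted p = 0.756), which turned to 0.04 when libraries were scaled by total counts only.

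In 11 of the 74 tested members (14.9%), every Ucp1Δ/Δ mouse was below every WT mouse, against 9.37% of all tested genes. The opposite held for 0 members, against 14.4% of all tested genes. Besides the 6 members that fell, these were Mrpl45, Mrpl10, Mrps10, Mrps25 and Mrps30, named because they met this condition and after their values were seen, with log2FCs between -0.54 and -0.31 and edgeR adjusted p between 0.0934 and 0.219. Mrpl45 sits at the exit tunnel and Mrpl10 is the base of the stalk. Named likewise after their values were seen, the 8 members with a log2FC above 0 were Mrps28, Mrps12, Mrpl54, Mrps27, Mrpl28, Mrps6, Mrpl3 and Mrps23, from 0.59 down to 0.03, all with an edgeR adjusted p of 0.224 or more. The sign of Mrpl28, Mrps6, Mrpl3 and Mrps23 changed when single mice were left out. Among the members without overlap, WT replicate 4 stood above the other WT mice for Mrps30, at 59.8 against 45.7 to 47.1 CPM.

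The large and the small subunit were set side by side. Of the large subunit, 5 of 47 tested genes fell (10.6%, against 7.63% of all tested genes) and 44 had a log2FC below 0 (93.6%), with a median of -0.26 and quartiles of -0.40 and -0.16. Of the small subunit, 1 of 27 fell (3.70%) and 22 had a log2FC below 0 (81.5%), with a median of -0.43 and quartiles of -0.52 and -0.22. The shares called, which rest on 5 genes and 1 gene, lay on either side of that of all tested genes. At an unadjusted p under 0.05, 11 large-subunit (23.4%) and 10 small-subunit genes (37.0%) were lower, against 14.3% of all tested genes. DESeq2's Wald test called 5 large-subunit and 3 small-subunit genes lower. The genotypes did not overlap, with Ucp1Δ/Δ mice lower, in 7 large-subunit and 4 small-subunit genes (14.9% and 14.8%, against 9.37% of all tested genes).

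Within single mice the balance of the subunits was steady. The mean log2 CPM of the large-subunit genes exceeded that of the small-subunit genes by 0.44, 0.48, 0.42 and 0.42 in the WT mice, and by 0.47, 0.45, 0.53 and 0.39 in the Ucp1Δ/Δ mice. The means were 0.44 ± 0.03 and 0.46 ± 0.06 (SD, n = 4), and the Ucp1Δ/Δ mice spanned the range of the WT mice. By the mean rather than the median, the genotypes differed by -0.26 for the large and -0.28 for the small subunit. When Mrps30 and Mrps18a were counted with the large subunit, where their proteins sit, and Mrps36 was left out, 5 of 49 large-subunit and 1 of 25 small-subunit genes fell, and the medians were -0.27 and -0.43.

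The calls were also counted by the origin of the proteins. By edgeR, 5 of 29 tested large-subunit genes for proteins with a bacterial counterpart fell (17.2%, against 7.63% of all tested genes). Their median log2FC was -0.29. Of the 20 genes for proteins found only in mitochondria, 0 fell by edgeR, with a median of -0.26. In that class 3 were lower at an unadjusted p under 0.05, 1 by DESeq2, 2 by limma voom, 0 by limma trend and 3 without WT replicate 4. Mrps18a was counted in this class, although it belongs to a paralog family that shares a bacterial counterpart. It gave the DESeq2 call and 1 of the 2 limma voom calls, and had an edgeR adjusted p of 0.0579. In the small subunit, 1 of 16 genes with a bacterial counterpart fell (median -0.51) and 0 of 9 found only in mitochondria (median -0.35, 2 at an unadjusted p under 0.05, 0 by DESeq2, limma voom or limma trend). At the 7.63% of all tested genes that fell, lists of this size would hold few calls, so counts of 0 do not set a class apart. No test of the difference between these classes was made.

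By place in the large subunit, all 12 tested genes of the central protuberance had a log2FC below 0, with a median of -0.27, and Mrpl35 fell. All 7 tested genes of the exit tunnel were also below 0, with a median of -0.23, and Mrpl47 fell. Over the whole large subunit 93.6% of tested genes were below 0 (50.7% of all tested genes), with a median of -0.26. The single calls were 8.33% and 14.3% of these 2 lists, against 7.63% of all tested genes. Neither place was therefore set apart from the rest of the subunit. Of the 4 tested stalk genes, 3 were below 0 and none fell by edgeR, DESeq2, limma voom or limma trend, with a median of -0.16 and 1 (Mrpl10) at an unadjusted p under 0.05.

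Mice of one genotype differed among themselves about as much as the genotypes did. The mean log2 CPM over the 74 tested members was 5.65, 6.01, 5.80 and 5.40 in the WT mice and 5.58, 5.29, 5.55 and 5.37 in the Ucp1Δ/Δ mice. WT replicate 4 lay among the Ucp1Δ/Δ mice, and WT replicates 1, 2 and 3 lay above them all. The means were 5.71 ± 0.26 and 5.45 ± 0.14 (SD, n = 4). Without WT replicate 4, 15 members fell, and without WT replicate 3, Ucp1Δ/Δ replicate 2 or Ucp1Δ/Δ replicate 4, 3 members fell (edgeR, adjusted p under 0.05).

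Markers of brown adipocytes ranked the mice within each genotype in the same order as the members did. Their mean log2 CPM over 14 genes was 7.89, 8.54, 8.32 and 7.35 in WT mice and 8.04, 7.56, 7.89 and 7.70 in Ucp1Δ/Δ mice. WT replicate 2 was highest for both, and WT replicate 4 was the lowest WT mouse for both. The order of the WT mice was not particular to these markers. It was the same for the complex I and cytosolic ribosomal lists described below, and the cytosolic list moved the other way with genotype. The markers' summed level was 14332 to 25285 CPM in WT mice and 11344 to 16913 CPM in Ucp1Δ/Δ mice. Of the 14 markers, 4 fell (28.6%, against 7.63% of all tested genes) and 1 rose (against 13.3%). Ucp1 itself had a log2FC of -0.34 (SE 0.30, edgeR adjusted p = 0.481), whereas Cidea, a lipid droplet protein, had -1.16 (SE 0.23, edgeR adjusted p = 0.00211), Adipoq, the adipocyte hormone adiponectin, had -0.82 (SE 0.19, edgeR adjusted p = 0.00606), and Elovl3, a fatty acid elongase, had -1.96 (SE 0.48, edgeR adjusted p = 0.00803). Dio2, the enzyme that activates thyroid hormone, rose (log2FC 1.45, SE 0.42, edgeR adjusted p = 0.0231). The part of adipocyte content in the members' levels was not tested.

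Markers of other cells also moved with genotype. All 12 tested macrophage markers of 14 listed rose, against 13.3% of all tested genes, among them Csf1r, Lyz2 and Cd68. Their median log2FC was 3.15. The list summed to 113 to 178 CPM in WT mice and 1095 to 1814 CPM in Ucp1Δ/Δ mice. Adgre1, Cd68, Itgam, Trem2 and Tyrobp had at most 12 counts in any WT mouse. They passed the filter through the Ucp1Δ/Δ mice, so only a rise could be called for them. In 1 WT mouse each, Ptprc and Mrc1 had at most 10 counts. Adgre1 and Trem2 were at 0 in at least 1 WT mouse. Of 7 tested fibroblast and stromal markers, 6 rose (Col1a1, Col3a1 and Dcn among them), against 13.3% of all tested genes. That list summed to 351 to 538 CPM in WT mice and 1080.2 to 2174 CPM in Ucp1Δ/Δ mice. Pdgfra had 0 to 14 counts and Lum 5 to 21 in WT mice. Both passed the filter through the Ucp1Δ/Δ mice, so only a rise could be called for them. Of 6 tested endothelial markers 1 rose (Tie1), against 13.3% of all tested genes. Their summed level was 153 to 189 CPM in WT mice and 210.0 to 231 CPM in Ucp1Δ/Δ mice. None of the 7 T and B cell markers passed the filter, all were at 0 in some mouse, Cd79a in all, and their summed level was at most 5.66 CPM. The 13 tested skeletal muscle markers did not pass the test (0 also at an unadjusted p under 0.05 and by DESeq2, limma voom and limma trend), and their summed level ranged from 50.1 to 2716 CPM in WT mice and from 108 to 3405 CPM in Ucp1Δ/Δ mice, with Myh1, Ckm and Actn3 at 0 in at least 1 mouse. The part of these cells in the members' levels was not tested.

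**Figure D3:**
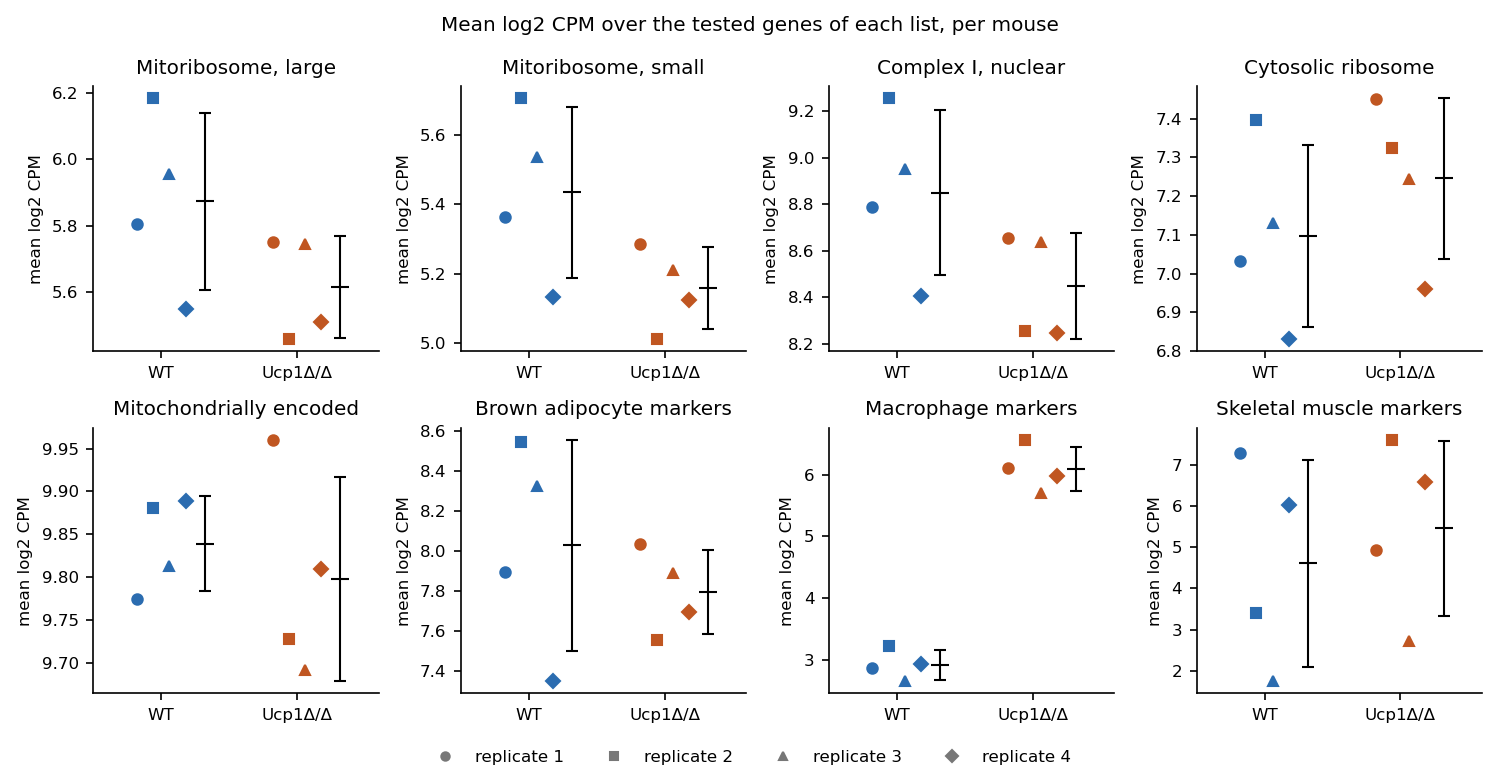
Mean log2 CPM (y axis, a separate scale in each panel) over the tested genes of 8 lists, per mouse, in WT (blue) and Ucp1Δ/Δ mice (orange), with symbols for replicates 1 to 4 and bars for the mean and SD (n = 4). In both mitoribosomal panels WT replicate 4 lies among the Ucp1Δ/Δ mice, as it does for complex I, and it is the lowest mouse for brown adipocyte markers. Macrophage markers separate the genotypes, and skeletal muscle markers vary widely within both.

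Proteins of the mitoribosome with other symbols numbered 5. Chchd1, a small-subunit protein, had 99.4, 123, 112 and 73.5 CPM in WT mice and 79.2, 56.6, 67.3 and 53.7 CPM in Ucp1Δ/Δ mice, and fell (log2FC -0.67, SE 0.20, edgeR adjusted p = 0.0229), although WT replicate 4 was below Ucp1Δ/Δ replicate 1. The other small-subunit proteins Dap3, Aurkaip1 and Ptcd3 had log2FCs between -0.36 and -0.08, and the large-subunit protein Gadd45gip1 had 0.07, with edgeR adjusted p of 0.220 or more. With these 5 added, 7 of 79 tested genes fell (8.86%, against 7.63% of all tested genes) and the median log2FC was -0.31.

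Factors that build the mitoribosome were called in both directions. Of 32 tested assembly and rRNA processing factors, 2 fell (6.25%, against 7.63% of all tested genes) and 2 rose (against 13.3%). Their median log2FC was -0.20. DESeq2, limma voom and limma trend each called 2 lower and 1 higher, and with total counts only 0 were lower and 2 higher. Eral1, which binds the small-subunit rRNA during assembly, fell (log2FC -0.69, SE 0.23, edgeR adjusted p = 0.0405), as did Hsd17b10, a dehydrogenase that is also a part of mitochondrial RNase P (log2FC -0.70, SE 0.20, edgeR adjusted p = 0.0208). Mpv17l2, a membrane protein that associates with the large subunit, was higher in every Ucp1Δ/Δ mouse than in any WT mouse, at 74.4 to 95.9 against 29.4 to 53.5 CPM (log2FC 0.97, SE 0.20, edgeR adjusted p = 0.00211). Gtpbp6, a GTPase that acts on the large subunit, rose from 11.7 ± 0.768 to 19.0 ± 4.94 CPM (SD, n = 4, log2FC 0.69, SE 0.24, edgeR adjusted p = 0.0483). The call of Mpv17l2 held in all 17 alternatives, whereas that of Gtpbp6 was lost in 13, among them DESeq2, limma voom, limma trend and 7 of 8 with a mouse left out, that of Eral1 in 9 and that of Hsd17b10 in 4.

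The rest of the translation machinery gave medians closer to 0 than the -0.31 of the members. None of 14 tested translation factors passed in either direction by edgeR, DESeq2, limma voom or limma trend (0 also at an unadjusted p under 0.05), with a median log2FC of -0.22. None of 18 aminoacyl-tRNA synthetases passed by these 4 tests (2 were higher at an unadjusted p under 0.05), with a median of -0.06 that turned to 0.08 when libraries were scaled by total counts only. Of 11 tested genes of mitochondrial transcription and DNA maintenance, 1 fell (9.09%, against 7.63% of all tested genes). This was Supv3l1, a helicase of mitochondrial RNA decay (log2FC -0.63, SE 0.21, edgeR adjusted p = 0.0479). Its call was lost in 13 of 17 alternatives, among them DESeq2, limma voom and 7 of 8 with a mouse left out. The list's median was -0.08, or 0.06 with total counts only.

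The products of the mitoribosome were measured as mRNA. None of the 12 tested mitochondrially encoded genes passed by edgeR or limma trend (1 lower and 1 higher at an unadjusted p under 0.05), whereas DESeq2 called 1 lower and limma voom 1 higher, and the median log2FC was -0.06, or 0.07 with total counts only. Mean levels in WT mice ran from 3.57 CPM (mt-Atp8) to 250620 CPM (mt-Nd4). For mt-Nd3, mt-Nd6, mt-Co2, mt-Co3 and mt-Atp6 they were between 17.0 and 58.5 CPM. The median therefore gives equal weight to mRNAs that were counted at very unlike levels. Protein levels and translation were not measured in these libraries.

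Of 10 tested regulators of mitochondrial biogenesis, 2 fell and 0 rose, against 7.63% and 13.3% of all tested genes. Their median log2FC was -0.22, with 7 below 0 and 3 above 0. At an unadjusted p under 0.05, 3 were lower and 1 was higher. With total counts only, 2 fell and 1 rose. Esrra, a nuclear receptor of the estrogen-related family, had 14.8, 43.9, 17.4 and 24.3 CPM in WT mice and 12.4, 8.09, 10.4 and 7.30 CPM in Ucp1Δ/Δ mice (log2FC -1.38, SE 0.32, edgeR adjusted p = 0.00611). Ppara, a nuclear receptor that responds to fatty acids, had 232, 132, 237 and 209 CPM in WT mice and 63.3, 78.1, 142 and 96.1 CPM in Ucp1Δ/Δ mice (log2FC -1.10, SE 0.25, edgeR adjusted p = 0.00476). Ppara overlapped between genotypes through WT replicate 2 and Ucp1Δ/Δ replicate 3, and Esrra did not overlap. The regulators that bind the ETS, NRF1 and YY1 motifs of the promoters above, Gabpa, Nrf1 and Yy1, had log2FCs of -0.24, -0.07 and -0.20 (SE 0.27, 0.26 and 0.16) with edgeR adjusted p of 0.593, 0.881 and 0.428.

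The nuclear-encoded subunits of complex I, which assemble with proteins made by the mitoribosome, had more calls. Of 36 tested subunits, 7 fell (19.4%, against 7.63% of all tested genes), 35 had a log2FC below 0 and the median was -0.46. Ndufa1 had -0.77 (SE 0.17, edgeR adjusted p = 0.00361), Ndufa8 -0.68 (SE 0.16, edgeR adjusted p = 0.00732) and Ndufv2 -0.70 (SE 0.18, edgeR adjusted p = 0.0121). Proteins of the cytosolic ribosome lay on the other side of 0. Of 83 tested, 63 had a log2FC above 0 and 24.1% one below 0, against 50.7% of all tested genes, with a median of 0.10. Only 1 rose, Rpl10 (log2FC 0.79, SE 0.21, edgeR adjusted p = 0.0119), whereas 13.3% of all tested genes rose. The share called was therefore below that of all tested genes. The 3 lists come from the same mice and the same comparison, and no test of the difference between lists was made.

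**Figure D4:**
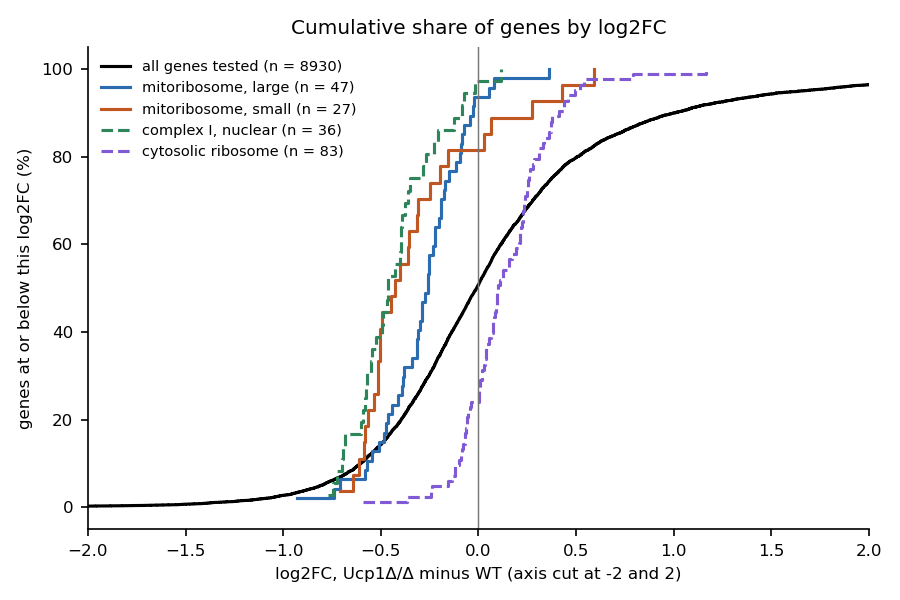
Cumulative share of genes (y axis, in %) at or below each log2FC (Ucp1Δ/Δ minus WT, x axis cut at -2 and 2) for all 8930 tested genes, the 47 large- and 27 small-subunit mitoribosomal genes, 36 complex I and 83 cytosolic ribosomal genes. Both mitoribosomal curves cross 0 above 80%, against 50.7% for all genes, and lie within a narrow range between -1 and 0.6, whereas the curve of all genes has longer tails on both sides.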

How the data were processed

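BAT of 4 WT and 4 Ucp1Δ/Δ mice was profiled by bulk RNA-seq, and samples were assigned from their labels. The authors deposited whole-number counts per Ensembl gene, without normalization, and log2 values, which were found to be log2(x + 1) with x the count over a scaling factor of each mouse. The study's methods name bbduk, STAR and HTseq-counts on mm10, whereas the submitters' processing notes name Trimmomatic, HISAT2 and DESeq2. The annotation release and strand setting of the counting are not given in the sources used here. A deposited table of sample attributes was not used.

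Symbols, positions and exon overlaps came from GENCODE annotation of mm10, which matched 31011 of 31053 rows. Low genes were removed by filterByExpr (default settings), libraries were scaled by TMM, and genotype was tested with edgeR 4.0.16 (quasi-likelihood, Benjamini-Hochberg over 8930 genes, threshold 0.05) in R 4.3.3. Log2 CPM used a prior count of 2. Alternatives used DESeq2 1.42.0 and limma 3.58.1, other scaling, filters and thresholds, the replicate number as a block, and each mouse left out. Within a genotype, the chi-square between any 2 libraries was 5.18 to 27.1 times its degrees of freedom, so no library was a duplicate.

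Members and lists were chosen with earlier results of these data known. The lists, apart from the symbol rules, were written by hand. The cytosolic list left out kinases and a binding protein with Rps symbols. Prorp, Mtrfr, Mtres1, Ndufb1, mt-Rnr1 and mt-Rnr2 had no row under these symbols. Members were named if they passed the threshold (up to 8 per direction), were the 2 closest to it in each direction, had the extreme log2FC of a subunit, were Mrps18 paralogs or Mrpl12, or were removed by the filter. Other lists name up to 3 genes per direction that passed. Other names in the text were chosen after their values were seen.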

Additional observations from a re-analysis of the deposited data

Results flagged for a closer look

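Of 122 groups of 4 values checked, for the genes named in the text and 5 list means, 2 had a mouse far from the others, where chance would give about 6.1. Mrps30, a large-subunit protein despite its symbol, had 5.92 log2 CPM in WT replicate 4, against 5.54 to 5.58 in the other WT mice, a gap of 0.889 of the group's range. Tie1, an endothelial receptor, had 4.76 log2 CPM in Ucp1Δ/Δ replicate 3, against 4.27 to 4.32 in the other Ucp1Δ/Δ mice, a gap of 0.903 of the group's range.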

How the results depend on the processing

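The median log2FC of all members stayed below 0 and within 1 SD of the mice under every alternative, and no alternative called a member higher. With each mouse left out, it was between -0.42 and -0.20 (large subunit -0.39 to -0.17, small subunit -0.49 to -0.26). The count of members that fell depended on the settings. It was 3 with at least 10 counts in every mouse or with total counts only, 10 with at least 1 count in any mouse, 14 at an adjusted p under 0.10, and 3 to 15 with a mouse left out. For the large subunit it was 3 with at least 10 counts in every mouse or total counts only, and 3 to 9 with a mouse left out. For the small subunit it was 3 with DESeq2's Wald test or limma voom, 2 under DESeq2's size factors, 5 where 1 count in any mouse sufficed, 0 with at least 10 counts in every mouse or total counts only, and 0 to 6 with a mouse left out. Scaling by total counts moved the median of all genes to 0.13 and the calls over all genes from 681 lower and 1191 higher to 404 and 1478, and the members' median was then -0.17, or -0.30 relative to all genes. Under it Mrpl12 turned to 0.0404, Dap3 to 0.0558 and Nrf1 to 0.0671. By DESeq2 Mrps23 was at -0.0112, and by limma trend at -0.0154. With single mice left out, signs also changed for Mrps23 (-0.0653 to 0.158), Mrpl28 (-0.127 to 0.412), Mrpl3 (-0.0854 to 0.179), Mrps6 (-0.0103 to 0.171), Gadd45gip1 (-0.00396 to 0.139), Gabpa (-0.433 to 0.0274) and Nrf1 (-0.201 to 0.00165). In 17 alternatives Mrpl34, Mrpl35 and Mrpl30 kept their call, and Mrpl47 lost it in 10 and Mrpl21 and Mrps18c in 9. Same-numbered mice are different animals, and their deviations correlated at -0.0873, -0.196, 0.304 and 0.241. Mice with different numbers were not compared in this way, so these values cannot decide whether the numbers pair them. With the replicate number as a block, 5 members fell, 4 of them among the 6, with 3 for the large and 2 for the small subunit, and 581 genes were lower and 1138 higher overall. The causes of these shifts were not tested. The limma trend alternative was chosen after seeing the data. At 2017697 to 3115956 counts per mouse, most single members did not pass the test at the size of the median difference.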
